A study of Mus musculus with 2 samples.

Results

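The genes described here are Trp53, which encodes the transcription factor p53, and 9 genes that p53 is known to activate: Cdkn1a, Mdm2, Ccng1, Bax, Gadd45a, Sesn1, Zmat3, Phlda3 and Btg2. They were taken by symbol from a table of 46095 genes, and 10 of 10 were present. C3H10 cells, a mouse embryonic mesenchymal line with the capacity to become adipocytes, received 100 nM of either an antisense oligonucleotide (ASO) against MALAT1 or the negative control ASO, were grown to confluence and were then differentiated. The inducing medium held isobutyl-1-methylxanthine, dexamethasone, troglitazone and insulin for 2 days and was followed by insulin alone, and the RNA was collected at day 6. The labels give the strain as C57BL/6 for both samples, although the line is named after C3H mice. There was 1 library per condition, so the conditions themselves could not be compared against a spread between cultures, and the sources used here do not say which of the designed ASOs was sequenced.

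p53 is kept low in unstressed cells by MDM2, a ubiquitin ligase that marks it for degradation and whose own gene p53 switches on. After DNA damage or other stress the p53 protein accumulates, mainly through its stability rather than its mRNA, and binds response elements at genes for cell cycle arrest, apoptosis, DNA repair and metabolism. In fibroblasts and preadipocytes, its target p21, the product of Cdkn1a, holds cyclin-dependent kinases in check, and p53 is known as a restraint on adipocyte differentiation. The mRNA levels below are therefore readouts of p53-dependent transcription only as far as these genes follow p53, and no p53 protein was measured in these libraries.

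Matches to the p53 response element near the start sites are shown because elements of this kind are the sequences that p53 recognises. A response element is a pair of 10-base decamers, each with a C and a G that are kept around 2 variable bases. RefSeq promoter windows of GRCm38.p6, from 250 bases before to 50 bases after a start site, were found for 9 of the 10 genes by symbol, with Zmat3 as the gene without one. Matches with up to 3 mismatches of 20 positions, with 0 or 1 base between the decamers and both cores intact, were present at 5 of these 9 genes, and the consensus reads alike on both strands. In the following lines, written from 5′ to 3′ on the strand of the gene, capitals mark the CNNG cores.
Ccng1: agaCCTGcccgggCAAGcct
Cdkn1a: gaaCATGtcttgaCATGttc
Bax: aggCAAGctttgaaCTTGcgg
Sesn1: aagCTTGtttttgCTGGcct
Trp53: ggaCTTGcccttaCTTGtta

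The Ccng1 match (chr11:40755462-40755481, minus strand) and the Cdkn1a match (chr17:29090928-29090947, plus strand) had 1 mismatch each. Only 36 of 32851 windows, or 0.110%, held a match that close. The Ccng1 match lay 195 to 176 bases before its start site, and the Cdkn1a match 51 to 32 bases before the more upstream of its 2 annotated starts. The Bax match (chr7:45467079-45467099, minus strand) had 2 mismatches and 1 base between the decamers, a class found in 0.682% of windows at that limit or closer. The Sesn1 match (chr10:41887266-41887285, plus strand), in the window of the downstream of its 2 starts, and the Trp53 match (chr11:69580284-69580303, plus strand) had 3 mismatches, and 2.82% of windows held a match at that limit or closer. By gene, 5 of 9 members with a window had a match, against 884 of 27025 genes. The members were picked as known p53 targets and the mismatch limits were set after the matches were seen. The contrast with all genes is therefore a description and not a test. A match says nothing of binding in these cells, and elements outside these windows were not searched.

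The libraries held 58147539 counts with the control ASO and 61653549 with the MALAT1 ASO. Malat1, the target of the ASO, had 170402 counts with the control ASO and 45396 with the MALAT1 ASO, or 24.7% of the control level. The cell type labels could be checked against markers. Fibroblast markers such as Col1a1 and Vim were abundant in both libraries, and of 4 macrophage markers Ptprc, Adgre1 and Itgam were at 0 counts in both while Csf1r had 3 and 13. Of 4 endothelial markers, Cdh5 and Kdr had 0 and 1 counts each, Pecam1 had 26 and 25, and Tek had 23 and 19. The summed level of 12 mature adipocyte markers was 8206 CPM (counts per 1000000 of the scaled library) with the control ASO and 3572 CPM with the MALAT1 ASO. All 12 were lower and none was at 0. By the rule for calling given below, 11 of them were called lower, beside 4.09% of all genes tested. The summed level of 12 preadipocyte and fibroblast markers was 20078 CPM and 22129 CPM, with Dlk1 at 0 in both libraries. Of the 11 tested, 10 were above 0 on the log2 scale and 1 below. Among them 1 was called higher, beside 2.19% of all genes tested. In bulk RNA a different proportion of cell types and a different amount of RNA per cell cannot be told apart, and the part of the lower adipocyte markers in the p53 values was not tested.

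Per length, the members spanned a wide range of levels. Levels are given here as RPKM, the CPM divided by the exon length in kilobases, using GENCODE M21 exon lengths (GRCm38), and the annotation behind the counts may differ. Phlda3, which encodes a small pleckstrin homology protein that restrains AKT, was the highest at 99.7 with the control ASO and 100.1 with the MALAT1 ASO. Cdkn1a followed in control cells at 79.2, with 72.4 in MALAT1-knockdown cells. Ccng1, the gene of cyclin G1, was at 70.2 with the control ASO and 79.7 with the MALAT1 ASO, so Cdkn1a and Ccng1 exchanged the second and the third place between the libraries.

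The middle of the order was kept in both libraries by Sesn1, Bax, Trp53, Mdm2 and Btg2. Sesn1 stood at 42.5 and 41.9 in control and MALAT1-knockdown cells. Bax stood at 30.2 and 34.6, close above Trp53 at 27.7 and 32.5. In control cells the 95% Clopper-Pearson interval of Bax, from 29.0 to 31.3, lay just above that of Trp53, from 27.1 to 28.4, but these intervals cover counting error only and not the uncertainty of the exon length. Mdm2 stood at 19.3 and 18.7, and Btg2 at 12.95 and 11.3.

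At the bottom, Gadd45a was at 4.05 in control cells (95% interval 3.67 to 4.46) and Zmat3 at 2.88 (2.76 to 3.02). In MALAT1-knockdown cells these genes did not differ beyond their counting intervals, at 3.32 (2.99 to 3.68) and 3.45 (3.31 to 3.59). Zmat3 has the longest exon sequence of the group, 11435 bases in GENCODE M21, and levels with other transcript lengths were not computed.

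**Figure D1:**
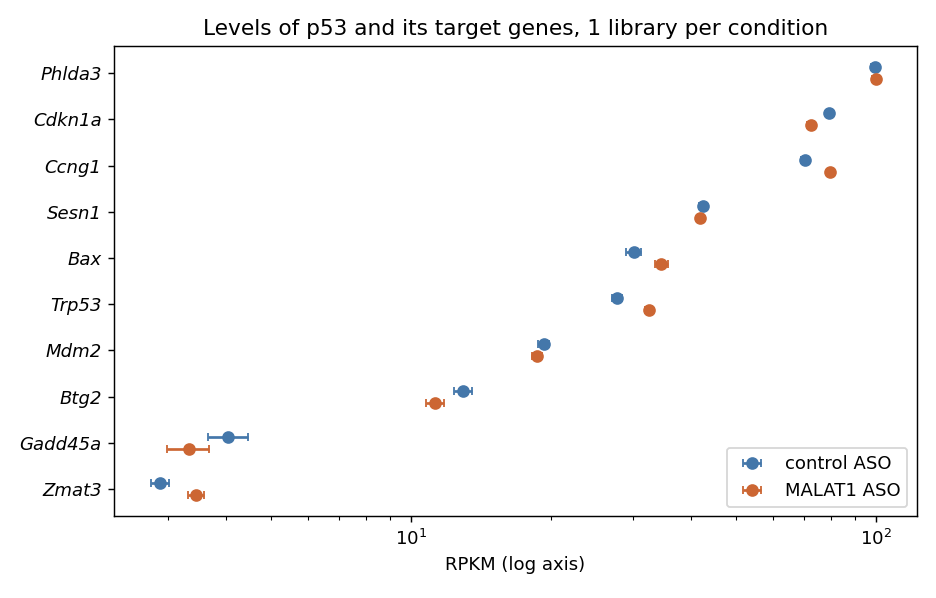
Level of each gene in RPKM (log axis) in the control ASO library and the MALAT1 ASO library, with 95% Clopper-Pearson intervals for counting error. The points of a gene lie close together in both libraries, while the genes span from 2.88 for Zmat3 to 99.7 for Phlda3 in control cells.

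None of the 10 genes passed the threshold for a called difference between the libraries. Calling required both a change of at least 2-fold and an adjusted p under 0.05 in a two-sided exact binomial test on the scaled counts, with Benjamini-Hochberg adjustment over 17356 genes. Of all genes tested, 2.19% were called higher and 4.09% lower in MALAT1-knockdown cells. With a 1.5-fold threshold the counts of members were also 0 in each direction, against 4.37% higher and 7.26% lower over all genes. Among the 10228 genes with a mean count of at least 388, as every member has, 10 were called higher and 91 lower. At 1.5-fold these counts were 187 and 314, so a call was rare among genes counted as deeply as the members. The members lay between -0.28 and 0.26 on the log2 scale, a range that held 58.8% of all genes tested and 78.0% of the 10228 genes with a mean count of at least 388, the mean of Gadd45a.

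The depth was enough to resolve small differences in counts. Without a fold threshold, 4 members were higher (Trp53, Ccng1, Bax and Zmat3) and 3 lower (Cdkn1a, Gadd45a and Btg2) at an adjusted p under 0.05, whereas 24.2% of all genes were higher and 23.8% lower by the same rule. Among the 10228 genes with a mean count of at least 388, as every member has, 33.4% were higher and 29.0% lower. This test speaks of the libraries and not of the conditions. With edgeR's exact test and a preset biological coefficient of variation of 0.1, 0 of the 10 members had an adjusted p under 0.05 and 0 had an unadjusted p under 0.05. Of all 17356 genes, 371 were higher and 708 lower by the adjusted p, and 1124 and 1631 by the unadjusted p.

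Trp53 had 6475 counts with the control ASO and 8173 with the MALAT1 ASO. The knockdown library was at 117% of the control level, giving a log2 ratio of 0.23 (95% interval 0.18 to 0.28). In GENCODE M21 the gene occupies chr11:69580359-69591873 (plus strand), and shares no exon base with another annotated gene. Apart from stretches shared with overlapping genes, no member had a copy of at least 95% identity over 200 bases among the annotated transcripts. The difference ranked at the 78.9th percentile of all genes tested.

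Within this pair of libraries, the feedback genes differed from each other beyond counting error, which leaves out the spread between cultures. Mdm2 (chr10:117688875-117710758, minus strand), whose product degrades p53, had 5657 counts with the control ASO and 5895 with the MALAT1 ASO, giving a log2 ratio of -0.05 (95% interval -0.10 to 0.01), and was not resolved from 0. Ccng1 (chr11:40748552-40755311, minus strand), whose product brings the phosphatase PP2A to MDM2, had 14235 counts with the control ASO and 17389 with the MALAT1 ASO, or 113% of the control level. Its log2 fold change was 0.18 (95% interval 0.15 to 0.21), and this interval did not overlap that of Mdm2.

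The 3 arrest genes among the members were on the lower side, whereas 5 of the 6 other arrest targets tested, described below, were above 0. Cdkn1a (chr17:29090976-29100727, plus strand), the gene with the most counts of the group in control cells, had 16235 counts there and 15975 in MALAT1-knockdown cells, giving a log2 ratio of -0.13 (95% interval -0.16 to -0.10) and 91.4% of the control level. The antisense model AC167363.2, not analysed here, overlaps 273 of its exon bases. Btg2 (chr1:134075170-134079120, minus strand), an antiproliferative cofactor of mRNA deadenylation, had 2050 and 1921 counts, giving a log2 ratio of -0.20 (95% interval -0.29 to -0.11). Gadd45a (chr6:67035096-67037457, minus strand), which encodes a growth arrest protein induced by DNA damage, had 412 and 364 counts, giving a log2 ratio of -0.28 (95% interval -0.49 to -0.08). It was the least counted member and had the widest interval, and 337 of its exon bases overlap the antisense gene E230016M11Rik, which had 35 and 48 counts. Whether strand was used in counting is not given in the sources used here, so reads of that stretch could belong to either gene.

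Bax, Phlda3, Sesn1 and Zmat3 act outside the arrest branch. Bax (chr7:45461697-45466898, minus strand), the pore-forming protein of mitochondrial apoptosis, had 2742 counts with the control ASO and 3386 with the MALAT1 ASO, giving a log2 ratio of 0.20 (95% interval 0.12 to 0.27), and the gene shares 192 exon bases with Gm45808 on the same strand. Zmat3, a zinc finger protein that binds RNA, had 1903 and 2449 counts. The gene spans chr3:32334792-32366014 (minus strand), and its log2 fold change of 0.26 (95% interval 0.17 to 0.34) was the highest of the group, at the 80.7th percentile of all genes.

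Phlda3 and Sesn1 were close to equal in both libraries. Phlda3 (chr1:135766119-135769136, plus strand) had 8973 counts with the control ASO and 9695 with the MALAT1 ASO, giving a log2 ratio of 0.01 (95% interval -0.04 to 0.05). Sesn1 (chr10:41809935-41908424, plus strand), an inhibitor of mTORC1 signaling, had 9771 and 10376 counts, with a 95% interval of its log2 fold change from -0.06 to 0.02. For Mdm2, Phlda3 and Sesn1, which are the members that were not resolved from 0, the intervals leave room for a change of at most 0.10 on the log2 scale from counting error alone.

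**Figure D2:**
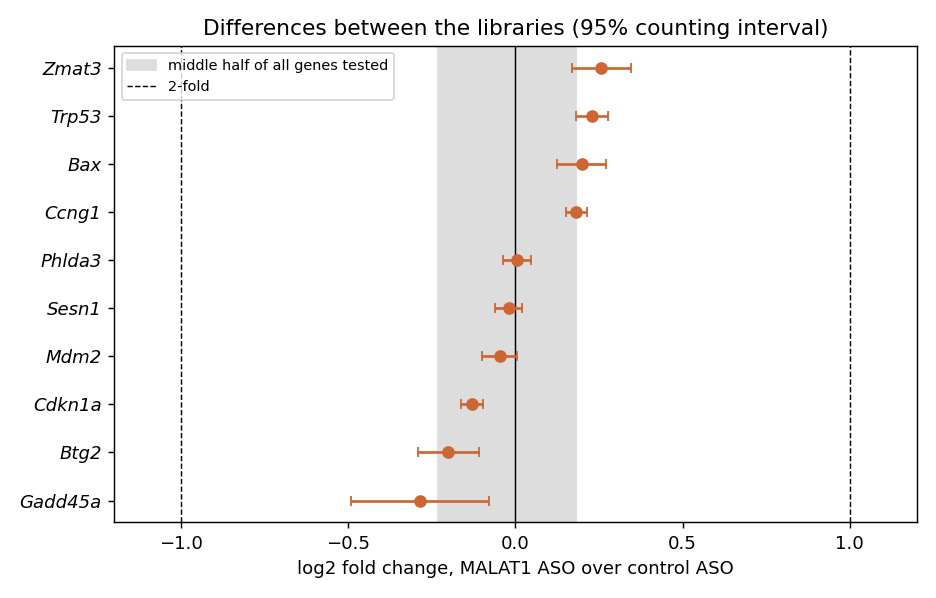
Log2 fold change of each gene between the MALAT1 ASO library and the control ASO library with its 95% interval for counting error. The grey band spans the middle 50% of all genes tested, from -0.23 to 0.18, and the dashed lines mark 2-fold, which no gene of the group reached.

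Members with a match to the response element stood on either side of 0. Ccng1 and Cdkn1a, with 1 mismatch each, had log2 fold changes of 0.18 and -0.13, with intervals that do not overlap. Bax, with 2 mismatches, was at 0.20, while Trp53 and Sesn1, with 3, were at 0.23 and -0.02. Btg2, Gadd45a, Mdm2 and Phlda3, whose windows held no match within 3 mismatches, spanned -0.28 to 0.01. Sequence outside the windows was not searched, so these genes may hold elements elsewhere. A link between a match and the direction was not tested.

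The median log2 fold change of the 10 members was -0.0074, beside -0.0029 over all genes tested. The members' median changed sign with library totals, to 0.0147, and with upper-quartile factors, to 0.0021. Among the members 5 were above 0 and 5 below, and among the 9 targets without Trp53 there were 4 above and 5 below. Among all genes, 8612 were above 0 and 8744 below.

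**Figure D3:**
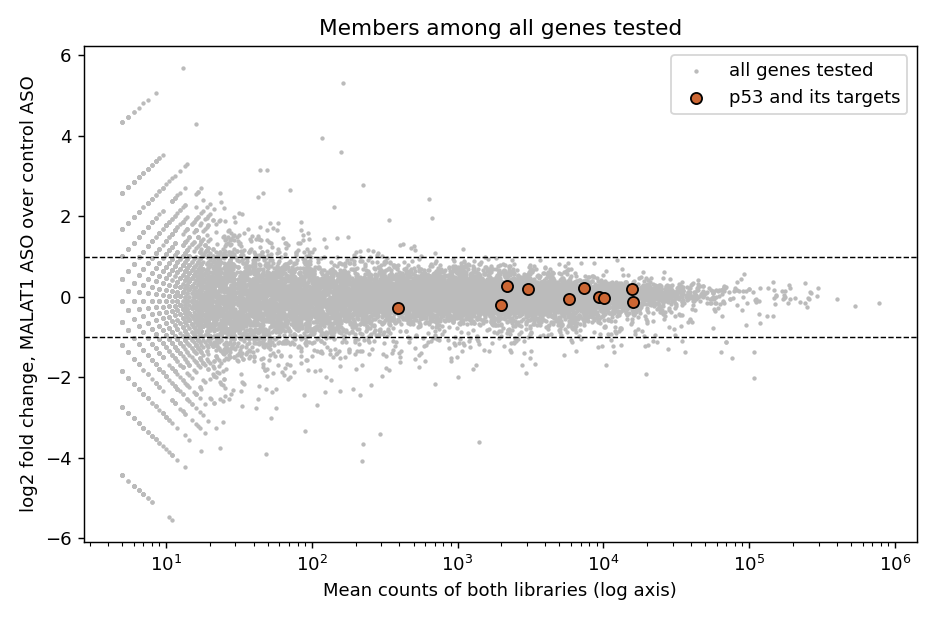
Log2 fold change against mean counts of both libraries (log axis) for the 17356 genes tested in grey, with the 10 members as filled circles and dashed lines at 2-fold. The members lie in the dense middle of genes with mean counts of at least 388 and stay inside the dashed lines.

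A longer list of 53 other known p53 targets was written by hand. Of these, 50 could be tested and 0 were called in either direction, beside 2.19% of all genes called higher and 4.09% lower. Of the 10228 genes with a mean count of at least 388, 10 were called higher and 91 lower. The 50 targets had a median log2 fold change of 0.00, with quartiles at -0.25 and 0.20. Without the fold threshold, 16 were higher and 18 lower at an adjusted p under 0.05, beside 24.2% and 23.8% of all genes and 33.4% and 29.0% of those with a mean count of at least 388. With edgeR's exact test at a preset coefficient of variation of 0.1, 1 was higher and 1 lower at an adjusted p under 0.05. Of all 17356 genes, 371 were higher and 708 lower by that rule. Rprm had 0 counts in both libraries, which allows up to 3 counts in each, and Pmaip1, a BH3-only activator of apoptosis, had 0 and 2.

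Members of this list stood on either side. Gtse1, a protein of the G2 phase that exports p53 from the nucleus and is itself expressed in dividing cells, had 622 counts with the control ASO and 1119 with the MALAT1 ASO, giving a log2 ratio of 0.74 (95% interval 0.60 to 0.88). Psrc1, a protein of the mitotic spindle, was at 0.43, Ak1, an adenylate kinase, at 0.37 and Ptprv, a receptor tyrosine phosphatase, at 0.50. Lower in the MALAT1-knockdown library was Aldh4a1, the mitochondrial enzyme of proline breakdown, with 3005 and 2007 counts and a log2 ratio of -0.69 (95% interval -0.77 to -0.61). Dram1, a lysosomal protein of autophagy, was at -0.59 with 9126 and 6510 counts. Pank1, which starts coenzyme A synthesis, was at -0.49, and Trp53inp1 at -0.38 with 27328 and 22617 counts.

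By role, the 13 tested targets of apoptosis had a median of 0.05, with 5 higher and 3 lower at an adjusted p under 0.05 without a fold threshold. The 6 tested targets of cell cycle arrest had a median of 0.21, with 4 higher and 1 lower. The 13 tested targets of metabolism and redox had a median of -0.17, with 2 higher and 7 lower, beside a median of -1.27 for the mature adipocyte markers, whose part in it was not tested. The 5 targets of DNA repair and nucleotide supply had a median of 0.04, with 1 higher and 1 lower. The 3 feedback targets had a median of 0.02, and the 10 tested targets of other roles had a median of -0.08 with 3 higher and 5 lower. Over all genes tested, 24.2% were higher and 23.8% lower by this rule. Within 43 of these targets that had a promoter window, 7 genes (Aen, Bbc3, Gpx1, Gtse1, Siva1, Tigar and Zfp365) held a match to the response element with up to 3 mismatches, beside 3.27% of all genes with a window. As for the members, this is a description and not a test.

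The regulators of p53 were also centred near 0. Of 22 genes tested, 0 were called, beside 2.19% of all genes called higher and 4.09% lower. The median log2 fold change was -0.03, with 7 higher and 6 lower at an adjusted p under 0.05 without a fold threshold. By the same rule 24.2% of all genes were higher and 23.8% lower. Among those with a mean count of at least 388 it was 33.4% and 29.0%. Mdm4, the partner of MDM2 that blocks the activity of p53, had 14467 counts with the control ASO and 15140 with the MALAT1 ASO, giving a log2 ratio of -0.04 (95% interval -0.07 to -0.01). Chek1, a checkpoint kinase whose gene is also expressed in S phase, had 311 and 544 counts, giving a log2 ratio of 0.70 (95% interval 0.50 to 0.91). Sirt1, a deacetylase of p53, was at 0.30, Atm, the kinase of double-strand breaks, at 0.20, and Npm1, a nucleolar protein, at 0.18. On the lower side, Trim24, a ubiquitin ligase, was at -0.35, Rpl11, a ribosomal protein that inhibits MDM2, at -0.24, Trp53bp2, a cofactor of p53 in apoptosis, at -0.21 and its relative Ppp1r13l at -0.21. Cdkn2a, whose ARF product inhibits MDM2, was sparsely counted, with 33 and 32 counts.

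The members' paralogs were compared next because they share protein folds but not all of them answer to p53. Of 21 paralogs listed, 18 could be tested and 0 were called, beside 2.19% of all genes called higher and 4.09% lower. Their median log2 fold change was -0.14. Without a fold threshold, 4 (22.2%) were higher and 9 (50.0%) lower at an adjusted p under 0.05. Over all genes these shares were 24.2% and 23.8%, and 33.4% and 29.0% with a mean count of at least 388. In the BTG family Tob1 was at -0.55 and Btg1 at -0.34, on the same side as Btg2. Gadd45g was at -0.43, on the side of Gadd45a. Sesn2, a sestrin induced by amino acid shortage as well as by p53, had 3040 and 2506 counts and was at -0.39 (95% interval -0.46 to -0.31), apart from Sesn1. Sesn2 was also counted among the targets of metabolism and redox above, so these lists are not separate. In the BCL2 family the apoptotic effector Bak1 was at 0.20, the same as Bax, and the survival genes Bcl2l1 and Mcl1 were at 0.24 and 0.07. The CDK inhibitor Cdkn1b was at 0.09. Of the p53 family, Trp63 had 1821 and 1527 counts and Trp73 had 0 in both libraries.

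Genes that p53 is known to repress through p21 and the DREAM complex, which silences cell cycle promoters in resting cells, were higher in the MALAT1-knockdown library. All 20 were above 0 and 20 of 20 had an adjusted p under 0.05 without a fold threshold, beside 24.2% of all genes. Of the 20, 0 were called, beside 2.19% of all genes called higher. At 1.5-fold 16 passed, beside 4.37% of all genes and 187 of the 10228 genes with a mean count of at least 388. Their median log2 fold change was 0.67, with a range from 0.24 to 0.88. Cdc25c, a phosphatase that activates CDK1, had 328 counts with the control ASO and 652 with the MALAT1 ASO, giving a log2 ratio of 0.88 (95% interval 0.69 to 1.08). Foxm1, a transcription factor of mitotic genes, was at 0.74 with 2218 and 3997 counts. Cdc20 was at 0.78 and Plk1, a mitotic kinase, at 0.76. The lowest gene of this list was E2f1 at 0.24. With a preset coefficient of variation of 0.1, 13 of the 20 had an adjusted p under 0.05 in edgeR's exact test. Of all 17356 genes, 371 were higher and 708 lower by this rule. With 0.2 none of the 20 had, beside 22 higher and 95 lower of all genes. A higher level of these genes was already known from these libraries when the list was written, and the part of Cdkn1a in it was not tested. They are genes of the cell cycle, and whether the difference is particular to those that p53 represses was not tested.

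**Figure D4:**
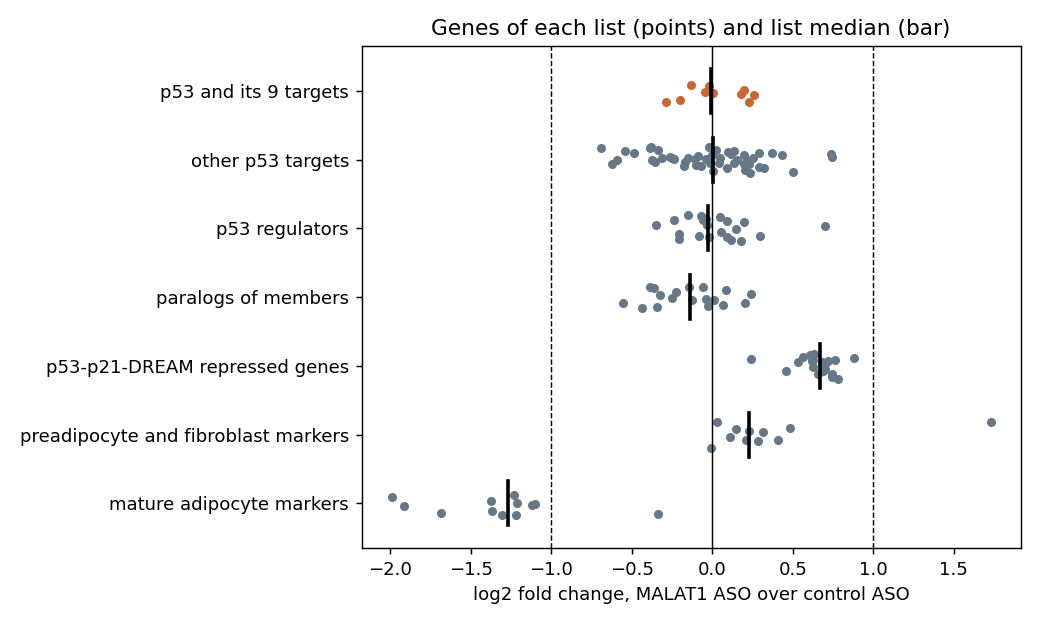
Log2 fold change of each tested gene (points) and the median (bar) for the 10 members, the other lists of the p53 pathway and the cell type markers, with dashed lines at 2-fold. The members and the other targets are centred near 0, the DREAM repressed genes at 0.67 and the mature adipocyte markers at -1.27.

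The tested genes beside Trp53 on chromosome 11 were examined for a difference shared by the region. Of 10 neighbours, 5 on each side, 0 were called, beside 2.19% of all genes called higher and 4.09% lower. Their median log2 fold change was -0.18, with a range from -0.53 to 0.40. Wrap53, which lies next to Trp53 on the opposite strand and encodes a telomerase cofactor, had 800 counts with the control ASO and 803 with the MALAT1 ASO, giving a log2 ratio of -0.10 (95% interval -0.24 to 0.04). On the same side Efnb3 was at -0.21 with 216 and 201 counts, Dnah2 at 0.02, Kdm6b at -0.14 with 5686 and 5548 counts, and Tmem88 had 17 and 15 counts. On the other side Atp1b2 had 17 and 13 counts, Sat2 was at 0.40 (95% interval 0.20 to 0.60) with 338 and 480 counts, Fxr2 was at -0.01 with 6293 and 6720, Sox15 had 15 and 11, and Mpdu1 was at -0.26. The value of Trp53 was thus higher than that of 9 of its 10 neighbours and lower than that of Sat2. The 95% intervals of Tmem88, Dnah2, Atp1b2, Sox15 and Sat2 contained it, however, so these genes were not resolved from Trp53. The 5 tested genes on each side of the other members were also taken. Their median was above the member for Mdm2 (0.07), Ccng1 (0.31), Cdkn1a (-0.10), Gadd45a (-0.13), Phlda3 (0.17) and Sesn1 (0.08). For Btg2 it was -0.20, about the value of Btg2 itself. It was below the member for Bax (-0.08) and Zmat3 (0.04).

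**Figure D5:**
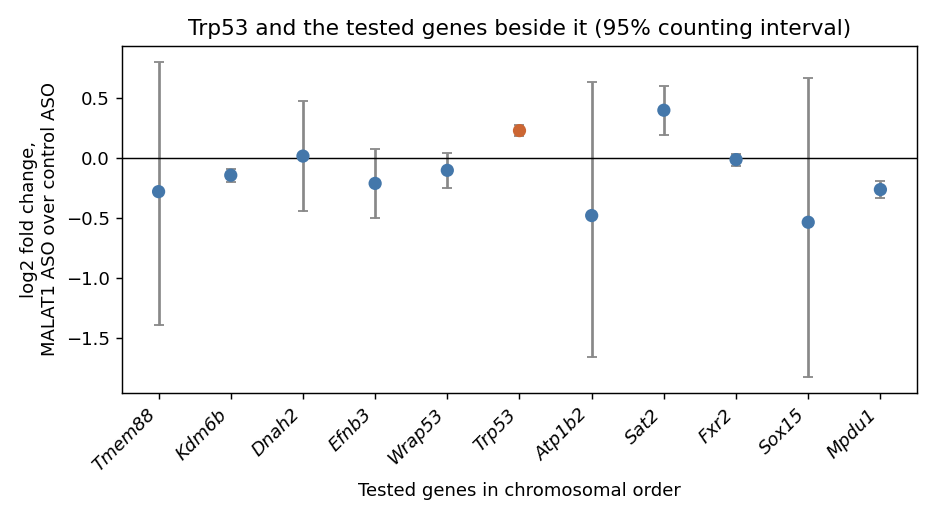
Log2 fold change with its 95% interval for counting error for Trp53 and the 5 tested genes on each side of it, in their order on the chromosome. Most neighbours are at or below 0, and the widest intervals belong to Sox15, Atp1b2 and Tmem88, with 11 to 17 counts per library.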

How the data were processed

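RNA-seq of 1 control and 1 MALAT1-knockdown library was analysed. The authors deposited whole-number counts of reads per gene symbol, without normalization, from total RNA depleted of rRNA. The submitters' processing notes name HISAT2 and GRCm38, and the counting tool, annotation, strand setting and treatment of multi-mapping reads are not given in the sources used here. The 17356 of 46095 genes whose summed count reached 10 were tested after scaling by TMM factors, 0.992 and 1.01 (edgeR 4.0.16, R 4.3.3). Log2 fold changes used a prior count of 0.5. With no replicates, a two-sided exact binomial test with doubled tails and Benjamini-Hochberg adjustment (scipy 1.17.1, Python 3.11.15) and 95% Clopper-Pearson intervals were used, which cover counting error only and are too narrow where a molecule was counted more than once. The procedure was tested on simulated data. Annotation came from GENCODE M21, promoter windows from RefSeq (GRCm38.p6), and near-identical copies were searched with BLAST+ 2.17.0. In the lists, 2 genes were found under older symbols.

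The members and the hand-written lists were chosen with earlier results of these data known. Named genes are the members, Malat1, the 5 tested neighbours on each side of Trp53, and in each list the genes called and up to 4 on each side with intervals farthest from 0. Cell type markers called are given only as sums. Col1a1, Vim, Dlk1, the macrophage markers, Rprm, Pmaip1, Mdm4, Cdkn2a, Trp63, Trp73, E2f1, overlapping genes and the genes with a promoter match were named after their values were seen, as were the limits on mismatches. Alternatives covered scaling (library totals, DESeq2 1.42.0 size factors, upper-quartile factors), the count filter, a prior count of 2, the fold threshold and edgeR's exact test with preset variation.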

Additional observations from a re-analysis of the deposited data

How the results depend on the processing

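With the exact binomial test and no fold threshold, 4 members were higher and 3 lower, and with edgeR's exact test at a preset variation of 0.1 these counts without a fold threshold were 0 and 0. The counts of called members were 0 and 0 under every alternative run that kept a fold threshold (scaling, filter, prior count, a 1.5-fold threshold and edgeR's exact test with a preset variation of 0.1, 0.2 or 0.4). No member came near either fold threshold, the farthest being Gadd45a at -0.28, and edgeR's runs kept the same fold changes. These counts were therefore bound to stay at 0 and are no check of the members. The sign of Sesn1 turned with library totals, to a log2 fold change of 0.0022, and its adjusted p stayed above 0.05. The other 9 members kept their direction under all alternatives. The medians of the 4 lists of the p53 pathway moved by less than the counting error of their genes, and the scalings placed the median of all genes between -0.0029 and 0.0192. With 1 library per condition, the spread between cultures is unknown, and a difference of the size seen in any member has no replicate check.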
